A study of Homo sapiens with 9 samples.

Results

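The genes described here are 5 ligands of the fibroblast growth factor (FGF) family, *FGF2*, *FGF4*, *FGF8*, *FGF17* and *FGF19*, and the 4 FGF receptors, *FGFR1*, *FGFR2*, *FGFR3* and *FGFR4*. They were chosen by symbol, and all 9 were found among the 36601 genes counted in both libraries. The cells came from human extra-embryoids (hEEs), which are aggregates of human pluripotent stem cells that organize into an inner embryonic-like and an outer extra-embryonic-like compartment. All hEEs sequenced were wild type and untreated and were grown from ESI017, an established human embryonic stem cell line that had been kept in an expanded potential medium (hEP-LCDMYI). Cells were aggregated in a spontaneous differentiation medium (SDM) that contains medium conditioned by mouse embryonic fibroblasts, with a ROCK inhibitor on the first day, and were moved to mIVC2 medium on day 3. Organized hEEs were picked under the microscope on day 4 (D4) and day 6 (D6), and the wells of a day, from cultures of different clones and passages, were pooled into 1 library. There were therefore no replicates, day and library cannot be told apart, and no test between days or between groups of cells could be run. Intervals throughout are 95% intervals and reflect the error of counting alone, not the spread between cultures.

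FGFs are secreted proteins that bind receptor tyrosine kinases at the cell surface, with heparan sulphate or, for the hormone-like members such as FGF19, a Klotho protein as co-receptor. An occupied receptor signals through adaptor proteins to the MAP kinases ERK1 and ERK2, and the same pathway induces its own inhibitors, among them the Sprouty proteins and the dual-specificity phosphatases. In the mouse blastocyst, FGF4 made by the epiblast directs neighbouring cells to become primitive endoderm, the counterpart of the human hypoblast, through FGFR1 and FGFR2. FGF8 and FGF17 are close relatives within the family and act in gastrulation and in the patterning of the brain, and FGF2 is the factor routinely added to human pluripotent stem cell cultures. The study blocked FGF receptors and the downstream kinase MEK in hEEs with small molecules. It also examined the main FGF ligands and receptors of D4 hEEs by differential expression. Which cells of the structure express which ligand and which receptor, on both days, is the question that the counts address here.

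The genes lie on 5 chromosomes of the human genome (RefSeq annotation of GRCh38.p14). *FGF4* (ENSG00000075388, chromosome 11, from 69771022 to 69775341) and *FGF19* (ENSG00000162344, chromosome 11, from 69698238 to 69704022) are near neighbours. *FGF2* (ENSG00000138685, from 122826682 to 122898236) and *FGFR3* (ENSG00000068078, from 1793293 to 1808867) are on chromosome 4. *FGF8* (ENSG00000107831, from 101770109 to 101780369) and *FGFR2* (ENSG00000066468, from 121478330 to 121598458) are on chromosome 10. *FGFR4* (ENSG00000160867, from 177086915 to 177098144) is on chromosome 5, and *FGF17* (ENSG00000158815) and *FGFR1* (ENSG00000077782) are on chromosome 8. A symbol stands for all transcripts of its gene. The libraries count the 3′ ends of transcripts by unique molecular identifiers (UMIs), 1 per captured molecule, so a level does not scale with transcript length and genes can be set side by side, although the efficiency of capture differs between genes. The splice forms of the receptors, which differ in the ligands they bind, are not resolved.

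The D4 library held 151712246 UMIs in 10943 cells and the D6 library 150320228 UMIs in 11483 cells. Cells with 3430 to 27500 UMIs and at most 10% mitochondrial UMIs were kept, which left 9151 cells of D4 and 10097 cells of D6 with medians of 12717 and 12960 UMIs. Only 40 barcodes occurred in both libraries. Cells were grouped by the UMIs of a few genes. The embryonic gate required at least 5 UMIs of *POU5F1*, at least 1 of *SOX2* and at most 2 of *FN1*, and held 3716 cells of D4 and 5054 of D6. The hypoblast gate required at least 3 UMIs of *FN1*, none of *SOX2* and at most 5 of *POU5F1*, and held 4061 and 3567 cells. Cells of the hypoblast gate were on average shallower, with median depths of 11012 and 10902 UMIs against 15158 and 14226 in the embryonic gate. Of the markers that did not define a gate, most were higher in the gate of their name. *APOA1*, the main protein of high-density lipoprotein, stood at 1621 counts per 1e+06 UMIs of the gate (CPM) at D4 and 11926 CPM at D6 in the hypoblast gate against 20.8 and 89.6 CPM in the embryonic gate, and *UTF1*, a pluripotency gene, at 1.13 and 2.92 CPM against 67.7 and 75.3 CPM. *PDGFRA*, a receptor gene of the hypoblast, hardly separated the gates at D4, with 7.30 CPM in the hypoblast and 5.12 CPM in the embryonic gate, and did at D6, with 70.1 against 5.63 CPM. *L1TD1*, a pluripotency gene, was still at 294 and 290.2 CPM in the hypoblast gate. The 4 trophoblast markers examined summed to at most 0.0627 CPM in either gate on either day. The 4 fibroblast markers summed to 250.0 CPM at D4 and 169.8 CPM at D6 in the embryonic gate and to 51.1 and 17.8 CPM in the hypoblast gate. The sums of the embryonic gate came mostly from the highest marker, at 208 and 127 CPM, while the lowest stood at 0.208 and 0 CPM. The 1374 and 1476 kept cells in neither gate had levels between those of the gates for most genes.

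The ligands were split between the compartments. *FGF2* and, at far lower levels, *FGF4* and *FGF19* were counted mainly in the embryonic gate, and *FGF17* and *FGF8* mainly in the hypoblast gate, on both days. *FGF2*, a ligand without a signal peptide that leaves cells by an unconventional route, was measured at 64.3 CPM [62.2, 66.4] at D4 and 63.9 CPM [62.1, 65.8] at D6 in the embryonic gate. In the hypoblast gate it stood at 3.60 CPM [3.08, 4.18] and 3.78 CPM [3.22, 4.42]. The level of *FGF2* thus differed between the gates by far more than counting error and hardly between the days. *FGF4*, the epiblast ligand of the mouse blastocyst, stood at 5.16 CPM [4.59, 5.78] and 5.01 CPM [4.52, 5.54] in the embryonic gate, and only 5 UMIs at D4 and 3 UMIs at D6 were counted in all cells of the hypoblast gate. *FGF19*, the hormone-like member, stood at 4.95 CPM [4.39, 5.56] at D4 and 6.74 CPM [6.16, 7.35] at D6 in the embryonic gate, and at 0.125 CPM [0.0460, 0.273] and 1.17 CPM [0.868, 1.55] in the hypoblast gate. Both were thus minor ligands of the embryonic gate beside *FGF2*.

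*FGF17* was the most abundant of the 5 ligands. In the hypoblast gate it was measured at 311 CPM [306, 316] at D4 and 474 CPM [467, 481] at D6, and in the embryonic gate at 9.85 CPM [9.05, 10.7] and 6.28 CPM [5.73, 6.88]. *FGF8* stood at 15.3 CPM [14.2, 16.5] and 15.4 CPM [14.2, 16.6] in the hypoblast gate, and at 0.882 CPM [0.657, 1.16] and 0.347 CPM [0.227, 0.509] in the embryonic gate. The relatives thus shared their gate but not their level. Of all ligand UMIs of these 5 genes in a gate, *FGF2* made up 75.5% at D4 and 77.7% at D6 in the embryonic gate, and *FGF17* 94.2% and 95.9% in the hypoblast gate. Summed over the 5 genes, the ligands reached 85.1 and 82.3 CPM in the embryonic gate and 331 and 494 CPM in the hypoblast gate.

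**Figure D1:**
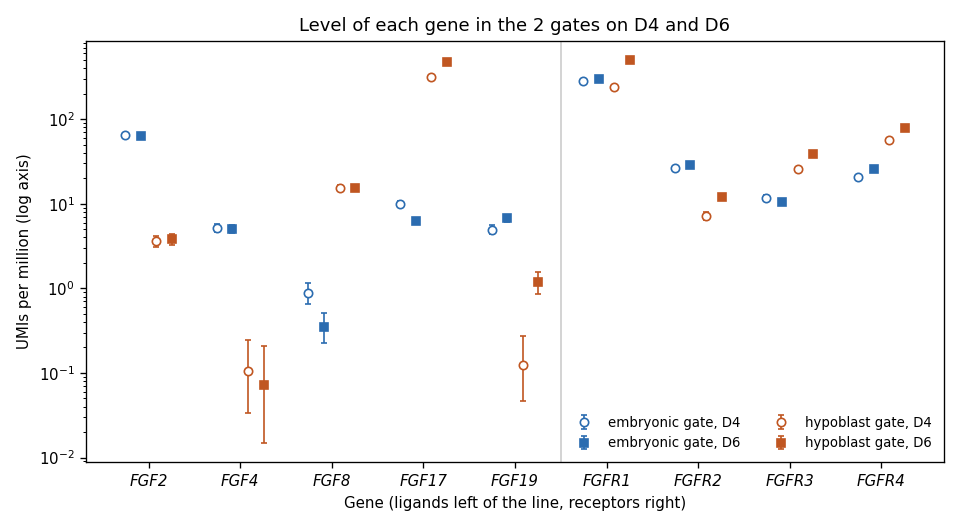
Levels of the 5 ligands and 4 receptors in CPM (log axis) in the embryonic and the hypoblast gate at D4 and D6, with 95% Poisson intervals that cover counting error only. *FGF2*, *FGF4*, *FGF19* and *FGFR2* lie higher in the embryonic gate and *FGF8*, *FGF17*, *FGFR3* and *FGFR4* in the hypoblast gate on both days, while *FGFR1* changes its order between the days.

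All 4 receptors were counted in both gates. *FGFR1*, the broadly expressed receptor, was the most abundant everywhere. It stood at 284 CPM [279, 288] at D4 and 302 CPM [298, 306] at D6 in the embryonic gate and at 241 CPM [237, 246] and 497 CPM [490, 503] in the hypoblast gate, so that the embryonic gate was the higher at D4 and the hypoblast gate at D6. *FGFR2* stood at 26.5 and 29.0 CPM in the embryonic gate and at 7.23 and 11.99 CPM in the hypoblast gate. The other receptors lay on the hypoblast side. *FGFR3* was measured at 25.6 and 38.7 CPM in the hypoblast gate and at 11.8 and 10.4 CPM in the embryonic gate. *FGFR4*, the receptor that binds FGF19 together with the Klotho protein KLB, was measured at 57.1 and 78.9 CPM in the hypoblast gate and at 20.9 and 25.4 CPM in the embryonic gate. The ligand *FGF19* and its receptor *FGFR4* were thus each higher in a different gate. The order of the receptors was *FGFR1*, *FGFR2*, *FGFR4* and *FGFR3* in the embryonic gate and *FGFR1*, *FGFR4*, *FGFR3* and *FGFR2* in the hypoblast gate on both days, with no overlap between the intervals of neighbours. *FGFR1* made up 82.7% and 82.3% of the receptor UMIs of the embryonic gate and 72.9% and 79.3% of those of the hypoblast gate, in which *FGFR4* made up 17.2% and 12.6%. The summed receptor level was 343 and 367 CPM in the embryonic gate and 331 CPM at D4 and 626 CPM at D6 in the hypoblast gate.

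With 1 library per day, a gene was called higher or lower only by size, that is when its CPM differed at least 2-fold and at least 10 UMIs had been counted over both groups. Between the gates, 4 of the 9 genes were called higher in the hypoblast gate and 4 lower on each day. Of all 20214 genes compared at D4, 15.2% were called higher and 16.5% lower, and at D6 14.7% and 22.0% of 20708 genes. *FGF17* had the largest positive log2 ratio of hypoblast to embryonic gate, 4.98 [4.86, 5.11] at D4 and 6.24 [6.11, 6.37] at D6, followed by *FGF8* with 4.12 [3.71, 4.56] and 5.47 [4.90, 6.09]. The log2 ratio of *FGF2* was -4.16 [-4.39, -3.94] and -4.08 [-4.32, -3.85]. That of *FGF4* was -5.62 [-7.26, -4.39] and -6.12 [-8.41, -4.57], and rests on the few UMIs of the hypoblast gate given above. These 4 ligands kept their sign on both days. For *FGF19* the ratio was closer to 0 at D6, -2.52 [-2.98, -2.10], than at D4, -5.30 [-6.76, -4.16]. At D6, 43 of its 49 UMIs in the hypoblast gate came from 10 cells with 3 or more *HAND1* UMIs. Over the other ways of processing, its D6 ratio lay between -5.74 and -2.35.

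Among the receptors, *FGFR4* had log2 ratios of 1.45 [1.35, 1.55] and 1.63 [1.55, 1.71], *FGFR3* of 1.12 [0.98, 1.25] and 1.89 [1.77, 2.02], and *FGFR2* of -1.87 [-2.05, -1.70] and -1.28 [-1.42, -1.14]. The interval of *FGFR3* at D4 reached below 2-fold. *FGFR1* was the gene that was not called on either day, its value of -0.23 [-0.27, -0.20] at D4 turning to 0.72 [0.69, 0.74] at D6. The median log2 ratio of all compared genes was -0.05 at D4 and -0.18 at D6. Taken relative to that median, the D6 values were 0.89 for *FGFR1*, -1.10 for *FGFR2* and 6.41 for *FGF17*, and the calls were the same.

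**Figure D2:**
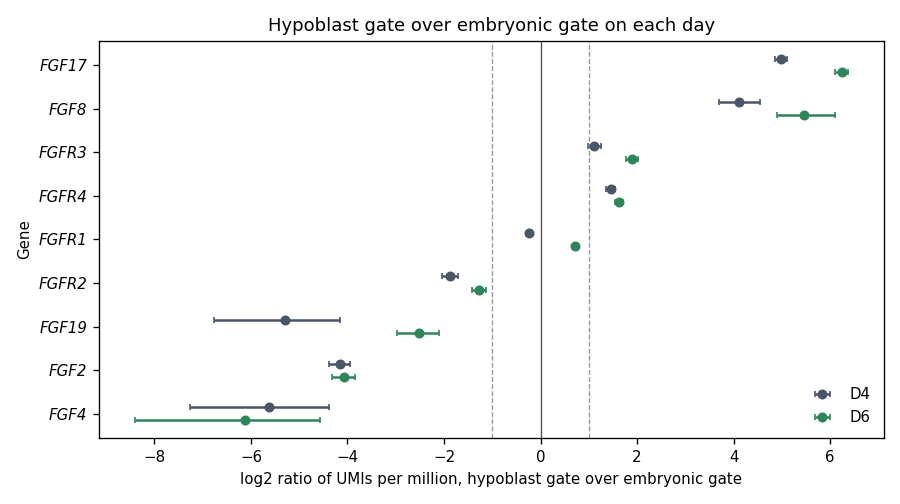
Log2 ratio of the CPM of the hypoblast gate over that of the embryonic gate for each gene at D4 and D6, with exact conditional binomial 95% intervals that cover counting error only and lines at a 2-fold difference. *FGF17* and *FGF8* lie far to the hypoblast side and *FGF2* and *FGF4* far to the embryonic side, while *FGFR1* stays within 2-fold and changes sign.

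RNA released by broken cells can add UMIs of a gene to cells that do not express it. Genes of 1 lineage that should be near absent in the other gate were set as a reference for it. They were *APOA1*, *APOA2* and *APOE* of the hypoblast and *UTF1*, *L1TD1* and *DPPA4* of the embryonic lineage. The level of *APOA1* in the embryonic gate was 1.28% at D4 and 0.752% at D6 of that in the hypoblast gate, and that of *UTF1* in the hypoblast gate was 1.67% and 3.88% of that in the embryonic gate. The level in the lower gate was 5.60% and 5.92% of that in the higher gate for *FGF2*, 3.16% and 1.32% for *FGF17*, 5.76% and 2.26% for *FGF8* and 2.03% and 1.43% for *FGF4*. For the 4 receptors the lower gate reached 26.9% to 85.1% of the higher one. Among the other reference genes the share was 1.35% and 0.868% for *APOA2*. It was larger for *L1TD1*, 25.2% and 26.6%, for *DPPA4*, 20.6% on both days, and for *APOE*, 17.2% and 12.7%. The reference genes thus spread from 0.752% to 26.6% and give no single level of free RNA. The part of free RNA in the levels of the lower gate was not tested.

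The *FGF17* UMIs of the embryonic gate were concentrated in few cells. At D4, 23 of its 3716 cells had 5 or more *FGF17* UMIs and held 266 of 569 UMIs, and at D6 15 of 5054 cells held 232 of 470. Without them, *FGF17* stood at 5.28 CPM and 3.19 CPM. These cells, chosen by the *FGF17* counts themselves, had median depths of 19234 and 21127 UMIs against 15147 and 14218 in the remaining cells, and *APOA1* stood at 456 and 2971 CPM in them against 17.3 and 77.8 CPM. The part of doublets in these values was not tested.

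The share of cells with a UMI depends on depth, so each cell was also thinned at random to 3430 UMIs. *FGFR1* was detected in 94.9% and 95.9% of the cells of the embryonic gate and in 85.3% and 95.3% of the hypoblast gate at D4 and D6, and after thinning in 59.0% and 63.0% and in 51.9% and 73.8%. *FGF17* was detected in 75.7% and 78.3% of the cells of the hypoblast gate, or 49.2% and 58.9% after thinning, against 7.10% and 4.49%, or 2.31% and 1.48%, of the embryonic gate. *FGF2* was detected in 59.1% and 56.6% of the cells of the embryonic gate, or 19.6% and 19.5% after thinning, against 4.09% and 4.15%, or 1.26% and 1.35%, of the hypoblast gate. Among the other ligands, the highest share in either gate after thinning was 5.12%, that of *FGF8* in the hypoblast gate at D4. *FGF8* was detected in 14.7% and 13.7% of the cells of the hypoblast gate, or 5.12% and 4.71% after thinning. *FGFR4* was detected in 46.2% and 56.0% of them, or 17.5% and 24.3%. *FGFR2* was detected in 32.9% and 34.0% of the cells of the embryonic gate, or 9.04% and 9.38%. *FGF4* and *FGF19* were detected in 7.29% and 7.21% of these cells at D4, or 1.86% and 1.32% after thinning.

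*FGF17* had the highest ratio of variance to mean over cells of the genes that could be examined. After thinning, the variance of its UMIs per cell in the hypoblast gate was 2.50 times its mean at D4 and 2.64 times at D6, where pure counting of an even level gives a ratio of 1. At D6, 41.1% of the cells had no *FGF17* UMI left and 23.0% had 3 or more. For *FGFR1* the ratio was 1.15 and 1.07 in the embryonic gate and 1.21 and 1.57 in the hypoblast gate. For the remaining genes with a mean of at least 0.05 thinned UMIs it lay between 0.99 and 1.13 in both gates. Their means were at most 0.281 thinned UMIs, against 1.02 and 1.56 for *FGF17* in the hypoblast gate. At the same relative spread the ratio rises with the mean, so it does not rank genes of unlike level by unevenness. At least 1 UMI of the 5 ligands was left after thinning in 24.2% and 23.9% of the cells of the embryonic gate. In the hypoblast gate it was 52.2% and 61.3%. For the 4 receptors the shares were 66.3% and 69.8% in the embryonic gate and 63.5% and 82.2% in the hypoblast gate. Both a ligand and a receptor UMI were left in 16.4% and 17.2% of the cells of the embryonic gate and in 30.9% and 50.4% of the hypoblast gate. These joint shares lay close to the products of the single shares. Of the pairs of genes examined within a gate, those that the product of their shares would put in at least 20 cells, a limit set after seeing the values, were found together 0.876 to 1.21 times as often as that product (16 cases over 2 days). The ratio was 1.10 and 1.06 for *FGF8* with *FGF17* in the hypoblast gate and 1.06 and 1.04 for *FGF2* with *FGFR1* in the embryonic gate. For rarer pairs it rests on few cells. In the embryonic gate *FGF2* and *FGF4* were found together in 14 cells at D4 and 25 at D6, against 13.5 and 17.9 by the product, *FGF19* and *FGFR4* in 7 and 13, against 3.39 and 9.17, and *FGF8* and *FGF17* in 2 and 1, against 0.255 and 0.119.

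**Figure D3:**
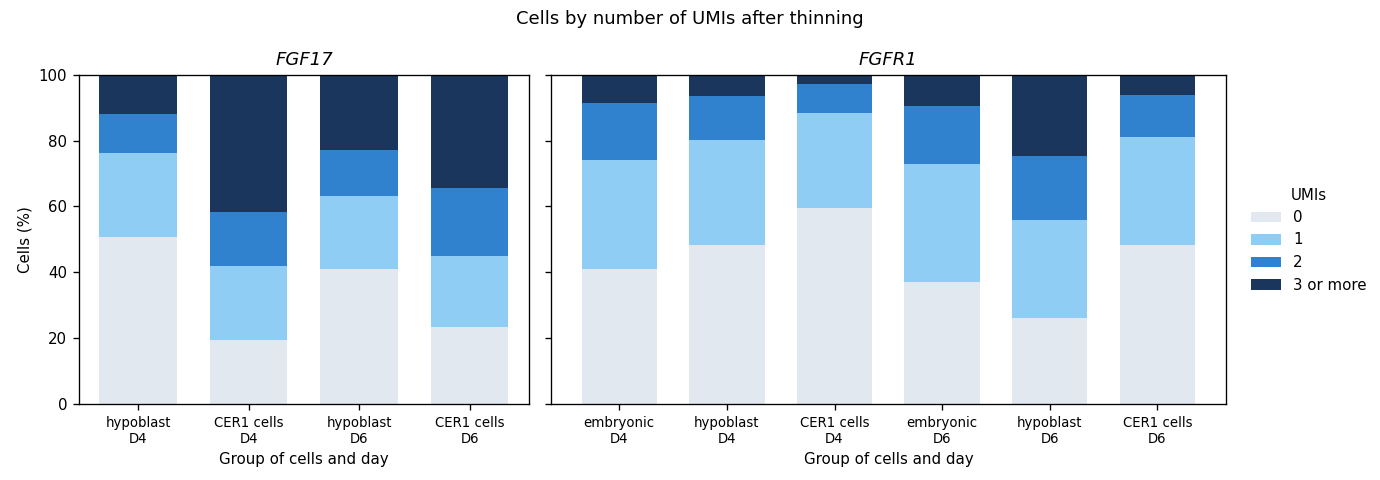
Share of cells (%) with 0, 1, 2 or at least 3 UMIs of *FGF17* and of *FGFR1* after every cell was thinned to 3430 UMIs, by day and group of cells. *FGF17* is spread from cells without a UMI (41.1% of the hypoblast gate at D6) to cells with 3 or more (23.0%), and the CER1 cells of D4 have the highest share with 3 or more (41.6%).

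Between D4 and D6 the embryonic gate differed little. Of the 9 genes, 1 was called lower at D6 and none higher, where 2.02% and 5.43% of 20639 genes were. *FGF8* was the gene called, with a log2 ratio of D6 to D4 of -1.34 [-2.09, -0.64], which rests on 51 and 26 UMIs and did not reach 2-fold when cells were thinned. *FGF17* had a log2 ratio of -0.65 [-0.83, -0.47], *FGF19* of 0.45 [0.23, 0.66] and *FGFR4* of 0.29 [0.18, 0.39]. The others lay between -0.19 and 0.13, and the interval of *FGF2*, -0.01 [-0.07, 0.05], allows only small differences.

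In the hypoblast gate, *FGFR1* and *FGF19* were called higher at D6 and no gene lower, out of 8 compared, where 6.40% and 6.02% of 19306 genes were called higher and lower. *FGFR1* had a log2 ratio of 1.04 [1.01, 1.07], which lies at the limit of the call. *FGFR2*, *FGFR3* and *FGFR4* had log2 ratios of 0.73 [0.53, 0.93], 0.59 [0.49, 0.70] and 0.47 [0.39, 0.54], so that all 4 receptors were higher at D6 in the hypoblast gate, 3 of them by less than 2-fold. *FGF17* had a log2 ratio of 0.61 [0.57, 0.64]. *FGF8* and *FGF2* stayed at 0.00 [-0.15, 0.16] and 0.07 [-0.25, 0.39]. When mitochondrial, ribosomal protein and apolipoprotein genes were left out of the total, *FGFR1* fell just short of 2-fold, with a log2 ratio of 0.99.

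The log2 ratio of *FGF19* in the hypoblast gate, 3.23 [2.00, 4.74], came from few cells. Its 49 UMIs at D6 were found in 16 cells, with up to 9 in a cell, and 43 of them in 10 of the 36 cells of the gate that also had 3 or more UMIs of *HAND1*, a transcription factor of early mesoderm and amnion. In those 36 cells *FGF19* stood at 76.2 CPM [55.1, 103]. In the 3431 cells of the gate without *TBXT* UMIs and with fewer than 3 *HAND1* UMIs it stood at 0.126 CPM [0.0408, 0.293], against 0.128 CPM [0.0469, 0.278] in the 3999 such cells of D4, a log2 ratio of -0.02 [-2.07, 1.95]. In the same cells *FGFR1* was still called higher at D6. The hypoblast gate apart from the *HAND1* cells therefore held *FGF19* at the level of a few UMIs on both days.

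Cells of the hypoblast gate with at least 2 UMIs of *CER1*, an antagonist of NODAL and BMP made by the anterior visceral endoderm in mouse, numbered 558 at D4 and 116 at D6. *FGF17* stood at 810.0 CPM [790, 831] in the CER1 cells of D4 against 220.5 CPM [216, 225] in the other cells of the gate, a log2 ratio of 1.88 [1.83, 1.92]. It was the only one of 7 genes compared that was called higher, and none was called lower, where 4.15% and 5.12% of 17647 genes were. *FGF17* was detected in 96.6% of the CER1 cells and 72.3% of the others, or 80.5% and 44.2% after thinning. *FGF8* stood at 20.9 against 14.3 CPM, a log2 ratio of 0.54 [0.28, 0.80]. The receptors were lower in the CER1 cells or level. *FGFR4* stood at 31.0 against 61.8 CPM and *FGFR1* at 154 against 257 CPM, with log2 ratios of -0.99 [-1.20, -0.80] and -0.74 [-0.83, -0.66], which do not reach 2-fold. The CER1 cells of D4 were thus the group with the most *FGF17* and, among those of at least 50 cells at D4, with the least *FGFR1*.

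At D6 the difference in *FGF17* was smaller, 693 CPM [655, 734] against 464 CPM [458, 471] and a log2 ratio of 0.58 [0.49, 0.66]. *FGF8* was the 1 gene of 8 compared that was called higher, at 41.1 CPM [32.2, 51.8] against 14.2 CPM [13.1, 15.5] and with a log2 ratio of 1.53 [1.15, 1.88], and none was called lower. Of 17225 genes, 7.25% were called higher and 4.92% lower. *FGFR1* stood at 264 against 507 CPM and *FGFR4* at 47.4 against 80.2 CPM, with log2 ratios of -0.94 [-1.08, -0.81] and -0.76 [-1.09, -0.45]. *FGF4* and *FGF19* had a UMI in 0 of the 116 CER1 cells of D6, which allows a share of cells with a UMI of up to 2.59% (3 counts of 116), and no fold was formed for *FGF19* because its 1.22 CPM in the other cells lies below the 1.71 CPM that 3 UMIs give in the CER1 cells. *HAND1* stood at 56.5 CPM in the CER1 cells of D6 against 9.10 CPM in the others. In the 96 CER1 cells left when cells with *TBXT* or *HAND1* were taken out, the log2 ratio was 1.52 for *FGF8* and 0.74 for *FGF17*.

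**Figure D4:**
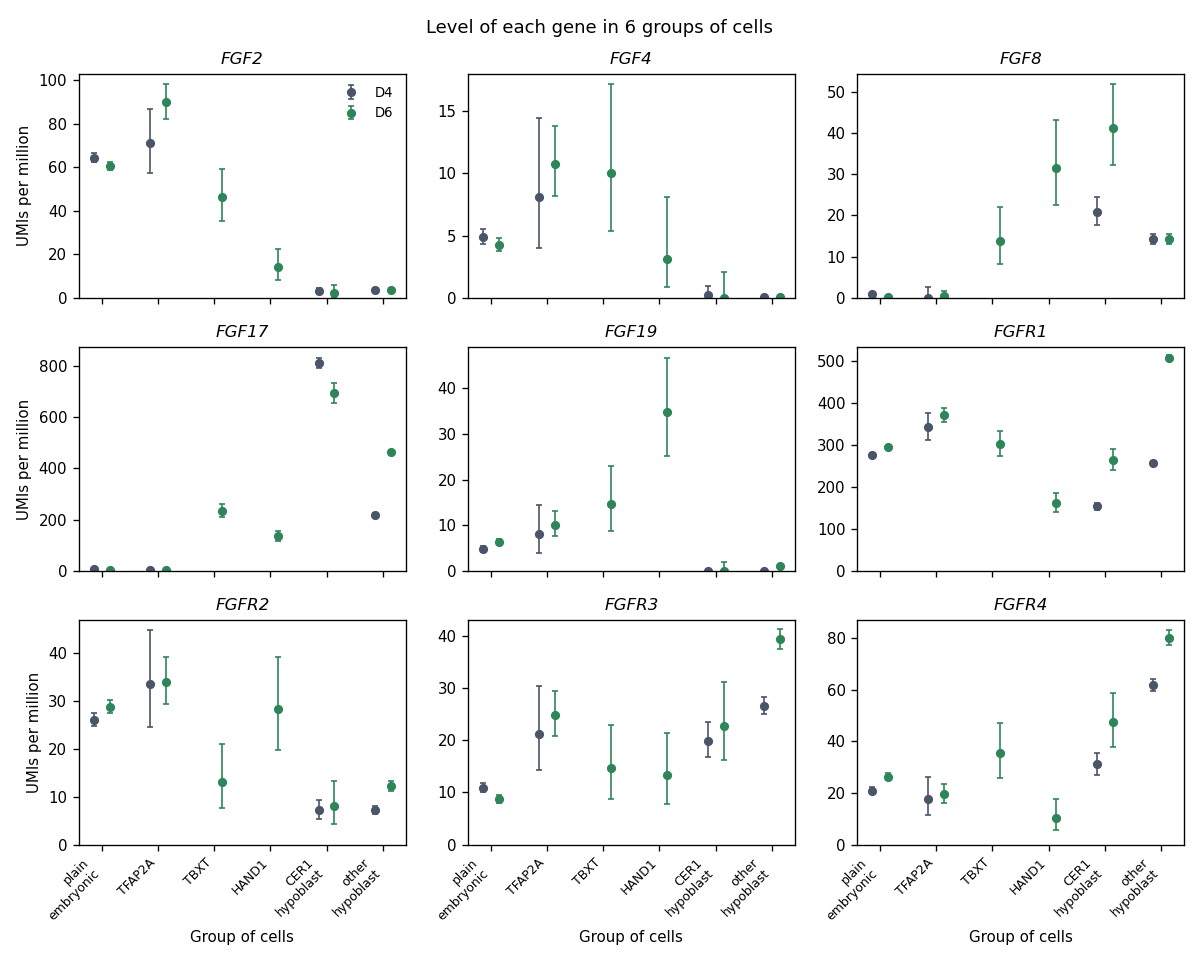
Level of each gene in CPM (linear axis from 0, its own scale in each panel) in the groups of at least 50 cells at D4 and D6, with 95% Poisson intervals that cover counting error only. *FGF17* is highest in the CER1 cells of the hypoblast gate on both days, *FGF8* in the CER1 and HAND1 groups of D6, and *FGF19* in the HAND1 gate of D6. The HAND1 gate can share cells with other groups of its day.

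Smaller groups gated on *TBXT*, *TFAP2A* or *HAND1* were compared with the plain embryonic cells, which had no UMI of these genes and numbered 3374 at D4 and 4314 at D6. The groups lay in the embryonic gate to differing parts. The comparisons of D6 share these control cells. The TBXT gate held the 80 cells of D6 outside the hypoblast gate with a UMI of *TBXT*, the Brachyury gene of the primitive streak. Of these cells, 25 were in the embryonic gate. *FGF17* stood at 235 CPM [209, 263] in the TBXT gate against 6.01 CPM [5.43, 6.64] in the plain embryonic cells. *FGF8* stood at 13.9 CPM [8.22, 21.9], from 18 UMIs, against 0.297 CPM [0.179, 0.463], from 19. The log2 ratios were 5.29 [5.07, 5.51] and 5.55 [4.53, 6.56]. *FGF4* stood at 10.0 against 4.23 CPM and *FGF19* at 14.6 against 6.48 CPM, with log2 ratios of 1.24 [0.32, 2.04] and 1.18 [0.43, 1.84]. These ligands made 4 of the 9 genes higher in the TBXT gate, where 10.4% of 18923 genes were, and *FGFR2* made 1 lower, with a log2 ratio of -1.14 [-1.92, -0.46], where 5.13% were. The intervals of *FGF4*, *FGF19* and *FGFR2* reached below 2-fold. *FGFR1* stood at 302 against 294 CPM, a log2 ratio of 0.04 [-0.11, 0.18].

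Hypoblast markers were also higher in the TBXT gate. The 8 markers summed to 3639 CPM against 145 CPM in the plain embryonic cells, none was at 0, and *APOA1* stood at 2921 CPM and *FN1* at 246 CPM. In the 58 TBXT cells with at most 2 *FN1* UMIs, *FGF17* and *FGF8* had log2 ratios of 5.24 and 5.36, with *APOA1* still at 1285 CPM. In the 46 cells that also had at most 5 *APOA1* UMIs, 55 *FGF17* UMIs were left and its log2 ratio was 3.60 [3.16, 4.01], while that of *FGF8* was 4.48 from 5 UMIs. Those of *FGF4* and *FGF19* were 1.91 and 1.88. *FGFR2* was no longer called, with -0.90 in the 58 cells and -0.64 in the 46. *FGF4* and *FGF19* in turn were not called over all called cells or with at most 20000 UMIs per cell. Of the 305 *FGF17* UMIs of the TBXT gate, most were thus in cells with more *FN1* or *APOA1* UMIs than that. The 46 cells still had more *FGF17* than the plain embryonic cells, from 15 cells with a UMI. They were not free of hypoblast markers, with *GATA6* at 37.1 CPM against 2.81 CPM in the plain embryonic cells. Of the 8 markers, *GATA4*, *PDGFRA* and *FN1* were also higher in the 46 cells. *APOA1*, *APOA2*, *SOX17* and *FOXA2* were lower. The part of the hypoblast RNA in these values was not tested.

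The HAND1 gate held 93 cells of D6 with at least 3 UMIs of *HAND1* and at most 5 of *APOA1*. Of these cells, 8 were also in the embryonic gate and 28 in the hypoblast gate. *POU5F1* and *SOX2* stood at 279 and 21.3 CPM in the HAND1 gate, against 1349 and 297 CPM in the plain embryonic cells. *FGF8* stood at 31.6 CPM [22.6, 43.0] against 0.297 CPM in the plain embryonic cells, a log2 ratio of 6.73 [5.91, 7.60], from 40 against 19 UMIs. Among the groups of at least 50 cells its interval overlapped those of the CER1 cells of both days and no other. *CER1* itself stood at 591 CPM in the HAND1 gate and was detected in 41.9% of its cells. The 28 cells in the hypoblast gate can also be among the CER1 cells of D6, so these groups are not separate by definition. *FGF17* stood at 136 CPM [116, 158] and *FGF19* at 34.7 CPM [25.2, 46.6], with log2 ratios of 4.497 [4.23, 4.76] and 2.42 [1.94, 2.87]. *FGF2* stood at 14.2 CPM [8.42, 22.5] against 60.7 CPM and *FGFR4* at 10.3 CPM [5.46, 17.5] against 26.3 CPM, with log2 ratios of -2.09 [-2.85, -1.43] and -1.36 [-2.27, -0.58]. These genes gave 3 higher and 2 lower of 9, where 13.3% and 8.72% of 18990 genes were called. The median log2 ratio of all genes was -0.10 here, and relative to it *FGFR1* had -0.76 and *FGF2* -1.99. *FGFR1* stood at 162 CPM [140, 186], the lowest level of it in any group of at least 50 cells at D6. The 8 hypoblast markers summed to 697 CPM in the HAND1 gate, with *FN1* at 324 CPM and *APOA1* at 86.0 CPM. In the 57 cells with at most 2 *FN1* UMIs, *FGF8* and *FGF17* had log2 ratios of 6.62 and 4.48, and *FGF2* and *FGFR4* of -1.93 and -2.31. *FGF19* had one of 0.30 from 6 UMIs in these cells, so that most of its UMIs in the gate came from cells that also had *FN1* RNA.

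The TFAP2A gate, with at least 2 UMIs of *TFAP2A*, a transcription factor of amnion and surface ectoderm, and at most 2 of *FN1*, held 83 cells at D4 and 382 at D6. Of these cells, 81 and 350 were in the embryonic gate. Of the 4 amnion markers examined, *TFAP2A* among them, 3 had no UMI in the gate at D4 and 1 had none at D6. At D6 they summed to 238 CPM, of which *TFAP2A* itself gave 229 CPM. *POU5F1* and *SOX2* stood at 1307 and 252 CPM at D6, against 1349 and 297 CPM in the plain embryonic cells. The gate is thus named for its gene and not for a cell type. At D6, *FGFR3* and *FGF4* were called higher and none lower, where 4.69% and 3.99% of 19060 genes were called. *FGFR3* stood at 24.9 CPM [20.9, 29.4] against 8.76 CPM [8.05, 9.52], a log2 ratio of 1.504 [1.22, 1.78]. *FGF4* stood at 10.7 CPM [8.15, 13.8] against 4.23 CPM [3.74, 4.77], a log2 ratio of 1.34 [0.91, 1.75]. *FGF2* and *FGFR1* lay slightly above the plain embryonic cells, at 89.97 against 60.7 CPM and 370 against 294 CPM, and *FGF17* did not differ beyond counting error, at 6.71 [4.73, 9.25] against 6.01 CPM. At D4, where 7.70% of 18043 genes were called higher and 3.29% lower, none of the 9 was higher and *FGF17* was lower, from 5 UMIs. *FGFR3* had a log2 ratio of 0.96 [0.37, 1.498] there.

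The other 17 FGF ligands were counted at low levels. Between the gates, 11 could be compared at D4, of which 4 were called higher in the hypoblast gate and 5 lower, and 13 at D6, of which 2 were higher and 7 lower, with median log2 ratios of 0.30 and -1.36. Over all genes compared, 15.2% were called higher and 16.5% lower at D4, and 14.7% and 22.0% at D6. Those at 5 CPM or more in a gate were *FGF11*, *FGF12* and *FGF13*, intracellular relatives that do not bind FGF receptors as secreted ligands do. *FGF11* had log2 ratios of hypoblast to embryonic gate of -1.69 at D4 and -2.04 at D6, *FGF13* of 0.30 and 0.85 and *FGF12* of 0.51 and 0.65.

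Of 24 co-receptors, heparan sulphate carriers and enzymes and binding proteins, 23 could be compared, of which 8 were called higher in the hypoblast gate and 6 lower at D4, and 8 higher and 7 lower at D6. The median log2 ratio was 0.47 on both days. Over all genes compared, 15.2% were called higher and 16.5% lower at D4, and 14.7% and 22.0% at D6. *FLRT3*, a membrane protein that binds FGF receptors, stood at 254 CPM at D4 and 541 CPM at D6 in the hypoblast gate against 3.63 and 5.61 CPM, with log2 ratios of 6.13 and 6.59. *FGFRL1*, a receptor without a kinase domain, had log2 ratios of 2.43 and 2.50, and *FLRT2* of 1.62 and 2.05. On the embryonic side, *SDC1*, a heparan sulphate carrier, had log2 ratios of -3.26 and -3.43, *FGFBP3*, an FGF binding protein, of -2.62 and -3.32, and *ANOS1*, an extracellular protein that binds FGFR1, of -2.21 and -1.77. Of the abundant heparan sulphate carriers, *GPC4* was not called, with log2 ratios of 0.46 and -0.23, and *GPC3* was called higher at D4 only, with 1.39 and -0.48. *KL*, the Klotho gene, had no UMI in either gate, and *KLB*, the co-receptor of FGF19, stood at 1.37 and 1.07 CPM in the embryonic gate and 0.816 and 0.455 CPM in the hypoblast gate.

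The 20 genes of the signal transducers were alike in both gates. At D4, 1 was called higher in the hypoblast gate and none lower, the adaptor gene *FRS3* at 1.88 against 0.804 CPM, and at D6 none was called either way, with median log2 ratios of 0.15 and 0.18. Among the most abundant were *MAP2K2*, with log2 ratios of 0.15 and 0.26, and *GRB2*, with 0.16 and 0.41. Of 23 feedback inhibitors and target genes, 5 were called higher in the hypoblast gate and 7 lower at D4, and 7 higher and 7 lower at D6, with medians of -0.10 and 0.25. *DUSP4*, a phosphatase of ERK, stood at 140 CPM at D4 and 223 CPM at D6 in the hypoblast gate against 4.499 and 5.06 CPM, with log2 ratios of 4.95 and 5.46. *IER3*, an early response gene, had log2 ratios of 1.74 and 3.93 and *DUSP5*, another phosphatase of ERK, of 2.06 and 2.49. *MYC*, *ETV1* and *SPP1* lay on the embryonic side, with log2 ratios of -3.36 and -3.33, of -2.37 and -3.07 and of -5.70 on both days, and *CCND1*, the cyclin D1 gene, had -2.30 and -1.74. Over all genes compared between the gates, 15.2% were called higher and 16.5% lower at D4, and 14.7% and 22.0% at D6. The targets as a list thus went neither way. Single members, most of them picked for a large fold, differed between the gates by up to about as much as the ligands did.

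**Figure D5:**
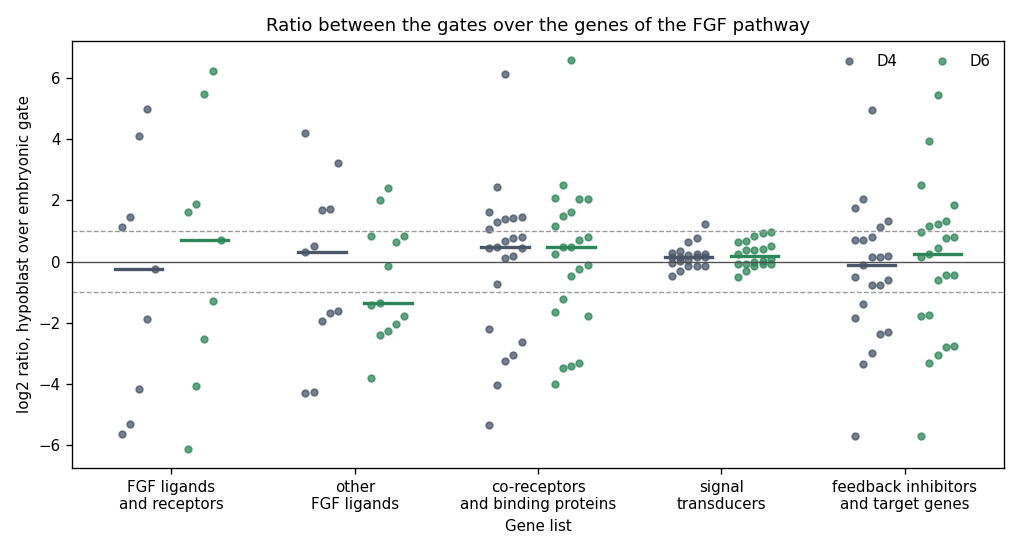
Log2 ratio of the hypoblast over the embryonic gate for each compared gene of the 9 ligands and receptors, the other FGF ligands, the co-receptors and binding proteins, the signal transducers and the feedback inhibitors and targets at D4 and D6, with a bar at the median of each list and dashed lines at a 2-fold difference. The signal transducers stay close to 0 (medians 0.15 and 0.18), while the other lists spread widely to both sides.

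Between the days, 2 of the 23 targets were called higher at D6 in the hypoblast gate and 1 lower, and none higher and 1 lower in the embryonic gate. Over all genes compared, 6.40% were called higher and 6.02% lower in the hypoblast gate, and 5.43% and 2.02% in the embryonic gate. So few calls do not set the targets apart from all genes. The targets called and the following genes are named after their values were seen. *PHLDA1* and *SPRY1*, the latter a Sprouty inhibitor of the pathway, were those higher in the hypoblast gate, with log2 ratios of 2.23 [2.14, 2.32] and 1.49 [1.37, 1.61], *SPRY3* was that lower, at 0.144 against 0.439 CPM, and *IER3* was that lower in the embryonic gate, with -1.28 [-1.35, -1.21]. Among the co-receptors, *FLRT3* was the 1 gene of 20 compared that was higher at D6 in the hypoblast gate, with 1.09, and *GPC3*, *FGFBP3* and *GPC4* were lower, with -1.17, -1.02 and -1.001, while none of 23 was called in the embryonic gate. The transducers were not called in either gate. *FLRT3* and *DUSP4*, which had the largest ratios of their lists toward the hypoblast gate, were also higher in the TBXT gate, with log2 ratios of 4.44 and 4.05, and in the HAND1 gate, with 3.41 and 2.60. The 8 hypoblast markers summed to 3639 and 697 CPM in these gates, against 145 CPM in the plain embryonic cells. Of the 93 HAND1 cells, 28 were in the hypoblast gate. The part of hypoblast RNA in the ratios of *FLRT3* and *DUSP4* was not tested. In the TFAP2A gate of D6, 3 of the 23 targets were called lower and none higher, where 3.99% and 4.69% of all genes compared were. They were *DUSP6*, an ERK phosphatase that is a standard readout of FGF signalling, at 9.43 against 63.9 CPM and a log2 ratio of -2.76 [-3.18, -2.37], *PHLDA1*, with -1.31 [-1.54, -1.10], and *DUSP4*, with -1.52 [-2.60, -0.63]. In the TFAP2A gate of D4, 4 of the 23 were lower and 1 higher, where 3.29% and 7.70% of all genes compared were.

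The genes with the most similar profile were sought over 10 groups of cells, 4 at D4 and 6 at D6 that each held at least 50 cells, among 10560 genes that reached 10 CPM in a group, by the root mean square difference of the centred log2 levels. *ADD2* was nearest to *FGF2* (0.28), *RHBDL3* to *FGF4* (0.26), *NRG1*, a ligand of ERBB receptors, to *FGF8* (0.35), and *CXCR4*, a chemokine receptor, to *FGF17* (0.46). *BCAM* was nearest to *FGFR1* (0.14), *RAMP2* to *FGFR2* (0.22), *FIGNL2* to *FGFR3* (0.22) and *SEMA4G* to *FGFR4* (0.19). *FGF19* had no close match, the nearest being *AC009055.2* (0.72). These are likenesses over groups that share 2 libraries and can share cells, and those of the low genes rest on few UMIs.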

How the data were processed

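The data are UMI counts from 3′ single-cell RNA sequencing of 2 libraries, 1 per day, of pooled hEE wells. The authors counted UMIs per gene and called cells with Cell Ranger 6.0.1 (from the file headers) on hg38 (from the submitters' processing notes), and deposited the raw counts without normalization or removal of cells. The 7 bisulfite libraries were not analysed here.

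Cells with 3430 to 27500 UMIs and at most 10% mitochondrial UMIs were kept, after the first filter in the study's methods. The study later removed further cells, in clusters with abnormal quality metrics, and that step was not repeated here. No doublet caller was run. The upper limit on UMIs was the only guard, and a limit of 20000 was an alternative. Gates used raw UMIs of the named genes, and groups under 50 cells entered no main comparison. The alternatives had no such limit, and some left fewer cells, such as 46 of the TBXT gate. UMIs were summed per gate and scaled to CPM, with exact Poisson intervals for levels, exact binomial (Clopper-Pearson) intervals for shares and exact conditional binomial intervals for log2 ratios. A count of 0 was bounded by 3 counts. With 1 library per group no test between samples exists, and calls are by size alone (at least 2-fold, at least 10 UMIs over both groups). The log2 ratio intervals were tried on simulated independent Poisson counts, which is the setting they assume. That trial does not cover counts that are uneven over cells, as those of *FGF17* were. Python 3.11.15, numpy 2.4.6, pandas 2.3.3, scipy 1.17.1 and matplotlib 3.10.9 were used.

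The 9 genes, the gates and the pathway lists were chosen with earlier results of these data known. Named beside the 9 genes are, of each list, the 3 at the highest level and the 3 with the largest fold in each direction (at 10 CPM or more, the same way on both days), ligands at 5 CPM or more, and the nearest profiles, except where said otherwise. The values of 1 gene that this rule names are not reported here. The alternatives changed the cell filter, the gates, the scaling, the depth and the UMI minimum. The counts limit precision to the intervals given, which leave out the spread between cultures.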

Additional observations from a re-analysis of the deposited data

Results flagged for a closer look

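In 3 cases the same contrast had opposite signs in a pair of groups. The differences were not tested, since there is 1 library per day. The log2 ratio of D6 to D4 of *FGF17* was -0.65 in the embryonic gate and 0.61 in the hypoblast gate, a difference of 1.25. That of *FGFR3* was -0.19 and 0.59, a difference of 0.779. The log2 ratio of hypoblast to embryonic gate of *FGFR1* was -0.23 at D4 and 0.72 at D6, a difference of 0.949. All 3 were larger than counting error, and none of the single ratios reached 2-fold. For *FGF17* that error does not cover counts that are uneven over cells. In the embryonic gate, 23 cells of D4 held 266 of its 569 UMIs, and 15 cells of D6 held 232 of 470. Its level there was 3.16% and 1.32% of that in the hypoblast gate. The parts of free RNA and of doublets in its ratio were not tested.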

How the results depend on the processing

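Over 9 comparisons, without that of the TFAP2A gate at D4, which was not recomputed, 33 values of the genes were called. Of these, 31 kept their sign wherever a value was formed and 23 stayed past 2-fold under all 12 other ways of processing and any added ones. Those added were chosen after seeing the data, 2 for the TBXT gate and 1 of these for the HAND1 gate. *FGF8* in the TBXT gate had too few UMIs to be compared in thinned cells. Between the embryonic and the hypoblast gate, 8 of the 9 genes were called on each day under all 12. The signs that turned were those of *FGF19* between the days in the hypoblast gate, -0.0226 without *TBXT* or *HAND1* cells, and of *FGF4* in the TBXT gate, -0.38 from 1 UMI with thinned cells. Of 111 counts of called genes, 96 stayed within 1.5 times the reported one. Between the days, the embryonic gate had 2 calls with at most 20000 UMIs per cell and 0 with thinned cells (1 as reported), and the hypoblast gate had 1 without *TBXT* or *HAND1* cells and 1 when mitochondrial, ribosomal protein and apolipoprotein genes were left out of the total (2 as reported). The CER1 cells of D4 had 2 calls with at most 20000 UMIs, with gates on UMIs per 10000, without those genes and with a minimum of 1 UMI, and 3 with stricter gates (1 as reported). The added call was *FGFR4* lower, joined by *FGFR1* lower with stricter gates, except *FGF4* higher with the minimum of 1 UMI. The CER1 cells of D6 had 3 with at most 20000 UMIs, with stricter gates, which left 30 cells, and with thinned cells (1 as reported). The added calls were *FGFR1* and *FGFR3*, *FGFR3* and *FGFR4*, and *FGFR1* and *FGFR2*, in that order, all lower. The TBXT gate had 3 with all called cells and with thinned cells (5 as reported), and the TFAP2A gate of D6 had 1 with gates on UMIs per 10000 (2 as reported). The cause of these changes in the counts was not tested. Of 36 thinned shares, 31 moved with thinning to 5000 UMIs, where depth is higher by construction. No paired analysis was possible because each day is 1 library without replicate numbers.

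Each day is 1 library of pooled hEEs, so the spread between cultures is unknown. Counts below about 10 UMIs per gate, as for *FGF4* on both days and *FGF19* at D4 in hypoblast cells, allow wide ratios. The gates rest on few genes and leave about 15% of the cells out, and no doublets were removed beyond the limit on UMIs.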
